A study of Mus musculus with 6 samples.

Results

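Langerhans cells are the dendritic cells of stratified epithelium, and 5 genes tied to them were followed here through phagocytes sorted from mouse sublingual mucosa: Cd207, Epcam, Cdh1, Tgfbr1 and Il34. The rule takes them by name: all 9 probes that carry 1 of these names on the array, of 56605 probes for 37008 gene names in all. Of the 9, 5 probes for 3 genes (Cd207, Epcam and Tgfbr1) passed the filter on dim signals described below; the only Cdh1 probe and both Il34 probes did not, and are given by their levels on each array.

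The study hybridised 6 one-colour Agilent arrays, 2 for each of 3 sorted fractions. Every fraction came from BALB/c mice, an inbred laboratory strain, which had received FITC 2 times on this mucosa, so all groups carry that treatment and none is unpainted. FITC is a fluorescent hapten that sensitises on contact. No genotype other than the strain is given, and neither the age of the mice nor how many were pooled for a sort is stated in the sources used here. Fr1 was sorted as cells with CD11c and without CD206, Fr2 as cells without CD11c and CD206 but with ADGRE1, the macrophage antigen that the labels give by its antibody's name, and Fr3 as ADGRE1-positive cells with high CD206. CD11c marks dendritic cells and several macrophages, and CD206 is the mannose receptor. Per the labels, the tissue was sublingual mucosa, and their protocol names the dorsal site of the tongue, digested with collagenase and DNase before the sort; the gates included neither langerin nor EpCAM. The 2 arrays of a fraction stem from separate experiments, per the series design, so p-values measure the spread between experiments. The RNA was amplified before labelling, and because a fraction is a mixture of cells, fewer cells of a type and less RNA per cell cannot be told apart.

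Cd207 encodes langerin, a C-type lectin that forms the Birbeck granules of Langerhans cells and is also carried by some dendritic cells of the cDC1 type. Langerhans cells sit between keratinocytes, to which they hold by E-cadherin, the product of Cdh1, and they display EpCAM, the product of Epcam, a surface protein also found on most epithelia. Their upkeep in the epithelium depends on interleukin 34, which keratinocytes secrete and which signals through the receptor CSF1R. TGF-beta, acting through the receptor kinase encoded by Tgfbr1, is needed for their development and for holding them in place. In oral mucosa, dendritic cells with langerin also arise from bone marrow precursors, and this dependence on TGF-beta has been described there as well.

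Each member was read by short probes, and the sequences of 3 are shown because the difference between replicate arrays varied with base composition, as given further on. All 3 have at least 1 reading frame without a stop codon, but whether they lie in the coding part of the message was not looked up. Each has 60 bases and is written 5′ to 3′ with its T bases in capitals; positions are as the files give them, in mouse build mm9. The Epcam probe A_52_P447944 lies on the plus strand at chr17:88048972-88049800 and spans an exon junction. The Tgfbr1 probe A_51_P280137 lies on the plus strand at chr4:47419898-47423556 and spans a junction as well. The Il34 probe A_66_P124871 lies within 1 exon on the minus strand at chr8:113266547-113266606.
Epcam, A_52_P447944: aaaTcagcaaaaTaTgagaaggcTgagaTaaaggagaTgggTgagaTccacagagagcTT
Tgfbr1, A_51_P280137: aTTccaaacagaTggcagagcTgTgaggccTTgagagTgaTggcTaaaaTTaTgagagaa
Il34, A_66_P124871: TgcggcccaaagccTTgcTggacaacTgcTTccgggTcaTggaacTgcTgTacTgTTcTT
T made up 16.7% of the Epcam probe, 21.7% of this Tgfbr1 probe and 28.3% of this Il34 probe. The other probes read Cd207 (A_51_P110381, chr6:83621442-83621501, minus strand), Cdh1 (A_51_P137336, chr8:109193812-109193871, plus strand), Il34 (A_51_P268234, chr8:113265835-113265894, minus strand) and Tgfbr1. Of the 3 further Tgfbr1 probes, A_52_P4538 lies at chr4:47427421-47427480 and is tied to a RefSeq transcript in the files. The probes A_55_P1960906 (chr4:47374114-47374173) and A_55_P1960901 (chr4:47395833-47395892) are tied to none and lie upstream of it in the same orientation; which transcript they read is not stated in the files.

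A level below is the log2 of a probe's processed signal minus the 75th percentile of that array, so 0 is the brightness that 75% of the probes do not exceed. Levels of different probes are not comparable, and each is read across arrays only. A probe was tested when it was well above background, in the scanner software's own flag, on both arrays of at least 1 fraction; this left 27867 probes. Differences are in log2 units with their standard error (SE), from limma fitted over all 6 arrays with n = 2 per fraction, and a difference was called at a Benjamini-Hochberg adjusted p under 0.05 over all tested probes. Among tested probes, both Fr1 arrays lay above both Fr2 arrays in 21.7% and above both Fr3 arrays in 13.8%. Both Fr2 arrays lay above both Fr3 arrays in 20.0%. Apart from both Fr1 arrays above all others, shares of other such patterns were not counted.

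Cd207 stood highest in Fr1. Its level was −0.16 and 0.47 in Fr1, −2.45 and −2.37 in Fr2, and −4.18 and −2.14 in Fr3. Both Fr1 arrays lay above all 4 others, a pattern that 6.00% of the tested probes shared. The probe was well above background on every array except the first Fr3 array. The mean was 0.16 ± 0.45 (SD, n = 2) in Fr1, −2.41 ± 0.05 (SD, n = 2) in Fr2 and −3.16 ± 1.44 (SD, n = 2) in Fr3.

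Against Fr2, Cd207 was higher in Fr1 by 2.57 ± 0.79 (SE), a 5.93-fold difference in signal, with an adjusted p of 0.391 in limma. Against Fr3 the difference was 3.32 ± 0.79 (SE), or 9.98-fold, with an adjusted p of 0.273 in limma; the unadjusted p was 0.00418. Neither passed, although only 364 and 225 of the 27867 probes had a larger difference toward Fr1 in the respective comparison. Fr2 and Fr3 differed by 0.75 ± 0.79 (SE; adjusted p = 0.732 in limma), with the Fr3 arrays lying on either side of the Fr2 pair. Fr2 was hybridised on a slide of its own, so what sets it apart from Fr1 and Fr3 cannot be told apart from the slide, whereas all Fr1 and Fr3 arrays shared 1 slide.

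These Cd207 differences kept their sign in all 15 alternative settings that gave a value, but not their size. The kept sign is no test of them. Settings that changed only the filter, the probes fitted or the spread could not move the difference of this probe. With both Fr1 arrays above the other 4, leaving out 1 array could not turn its sign. With a normexp background correction, which adds an offset of 50 and compresses dim signals, they were 0.63 against Fr2 and 0.68 against Fr3. Without the first Fr3 array, where the probe was not well above background, the difference from Fr3 was 2.30, and without the second it was 4.33. The second Fr3 array read probes poor in T higher than the first did: over the 1910 tested probes with as many T bases as the Cd207 probe the median gap was 0.59, against 2.03 for Cd207 itself.

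**Figure D1:**
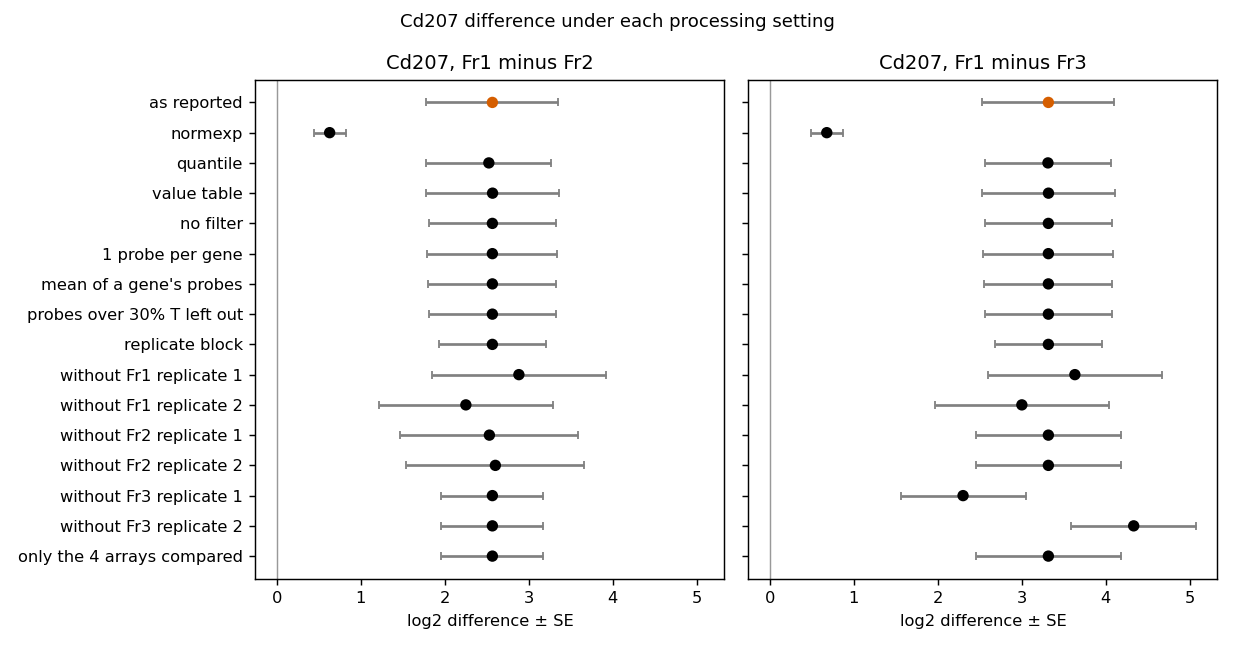
Log2 difference (x axis) of Cd207 between Fr1 and Fr2 (left) and between Fr1 and Fr3 (right) under each processing setting (y axis); points are fitted differences, bars 1 SE, and the reported setting is orange. All values are above 0, which leaving out 1 array could not change. They run from 0.63 to 2.88 against Fr2 and from 0.68 to 4.33 against Fr3, the lowest in both under normexp.

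Of the adhesion molecules, Epcam was measured on every array and did not set the fractions apart. Its level was 0.63 and −0.41 in Fr1, 0.91 and −0.63 in Fr2, and −0.15 and −0.42 in Fr3. The 3 fractions overlapped, and the first array of each fraction read above the second. Fr1 and Fr2 differed by −0.03 ± 0.74 (SE; adjusted p = 0.994 in limma), Fr1 and Fr3 by 0.39 ± 0.74 (SE; adjusted p = 0.924) and Fr2 and Fr3 by 0.42 ± 0.74 (SE; adjusted p = 0.844). A standard error of 0.74 leaves room for a difference of either sign, and the sign of each turned when single arrays were left out.

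Cdh1 was well above background on 1 of the 6 arrays, the second of Fr1, where its level was −1.72. The first Fr1 array read −2.98, Fr2 −4.95 and −5.00, and Fr3 −4.95 and −3.03, none of them well above background. No fold is given, since 1 of the 2 Fr1 arrays did not measure it either. It was not tested with the filter; when all probes were tested, Fr1 against Fr2 had an adjusted p of 0.540 in limma. Both the Cd207 and the Cdh1 probe read highest on the second Fr1 array, whereas the Epcam probe read lower there than on the first. The Cd207 and Cdh1 probes have 23.3% and 25% T. Over tested probes with 20% to under 30% T, the second Fr1 array read a median of 0.42 above the first.

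**Figure D2:**
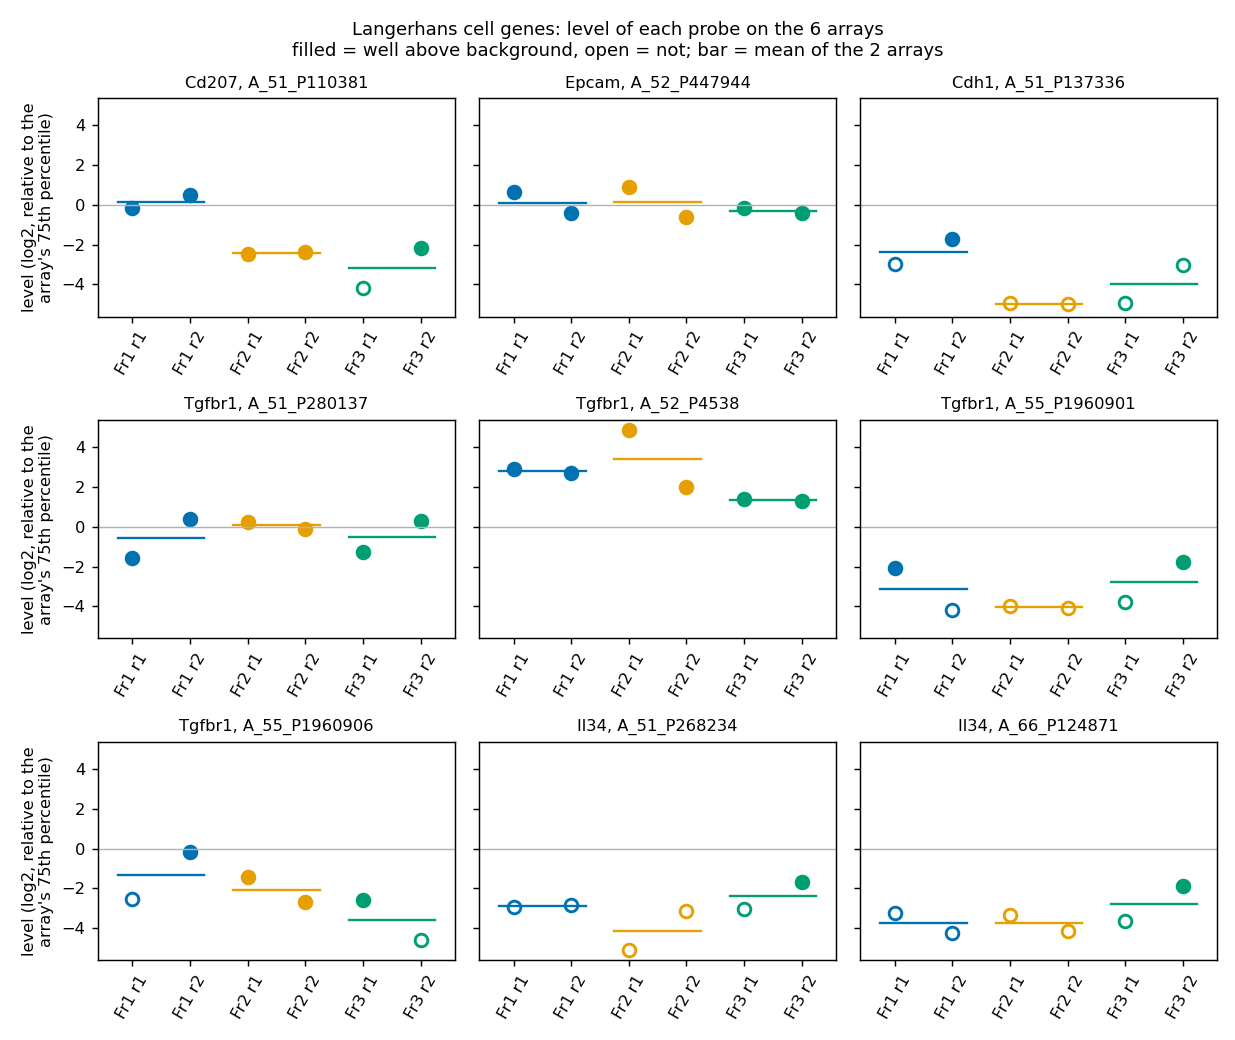
Level of each of the 9 probes (y axis, log2 units from the 75th percentile of the array) on each array (x axis, fraction and replicate); filled points were well above background, open points were not, and bars are means of 2 arrays. Cd207 is highest on both Fr1 arrays, Epcam overlaps between fractions, and most Cdh1 and Il34 points are open.

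Because EpCAM and E-cadherin also mark epithelium, genes of epithelial cells were read on the same arrays. Of 22 epithelial markers, the number well above background per array was 11 and 10 in Fr1, 15 and 16 in Fr2, 15 and 10 in Fr3. Krt5, the keratin of basal epithelial cells, was not well above background on any array, with levels from −5.04 to −2.70, and neither were Krt10, Krt19 and the desmosomal cadherin gene Dsg3. Krt18, a keratin of simple epithelium, was at −0.57 and −0.49 in Fr1, 2.42 and 2.74 in Fr2, and 1.95 and 0.37 in Fr3. Its Fr1 arrays lay below the other 4. Krt6a, a keratin of stressed and oral epithelium, was well above background on the Fr2 arrays only and passed the filter through them. Of the 15 epithelial genes tested, 1 was higher in Fr1 and 5 in Fr2 at an unadjusted p under 0.05, where 3.09% and 6.17% of all tested genes were, and the list's median was 0.01 beside 0.03 over all genes. The 1 higher in Fr1 was Grhl3, an epithelial transcription factor gene named after its value was seen, with Fr1 minus Fr2 at 2.99 ± 0.92 (SE; adjusted p = 0.393 in limma) and the first Fr2 array not well above background. Grhl3 passed the filter through Fr1 alone, and Krt6a and Krt14, both among the 5, through Fr2 alone. The places of these genes were thus tied to the filter. Krt18, also among the 5, was well above background on every array.

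The summed level of the epithelial markers was dominated by the probe for Trp63, whose level was between 7.14 and 7.83 on all arrays. With it the log2 sum was 7.37 and 7.68 in Fr1, 7.64 and 7.56 in Fr2, and 7.36 and 7.91 in Fr3, so the fractions overlapped. Without it, a choice made after its values were seen, the log2 sum was 4.35 and 3.68 in Fr1, 5.10 and 5.07 in Fr2, and 4.51 and 3.71 in Fr3. Secretory genes of the salivary glands summed to 4.51 and 4.48 in Fr1, 7.37 and 8.31 in Fr2, and 5.50 and 5.47 in Fr3, with 5 to 8 of their 9 genes on the array well above background. The mucin gene Muc5b was at −2.91 and −1.79 in Fr1, the first of them not well above background, and at 6.67 and 5.16 in Fr2 (adjusted p = 0.197 in limma) and 3.33 and 3.04 in Fr3. Summed glandular signal was thus highest in Fr2, as was the epithelial sum without Trp63 but not with it, and the Epcam levels of the Fr2 arrays, 0.91 and −0.63, were its highest and its lowest. The part of these cells in the Epcam and Cdh1 levels was not tested.

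**Figure D3:**
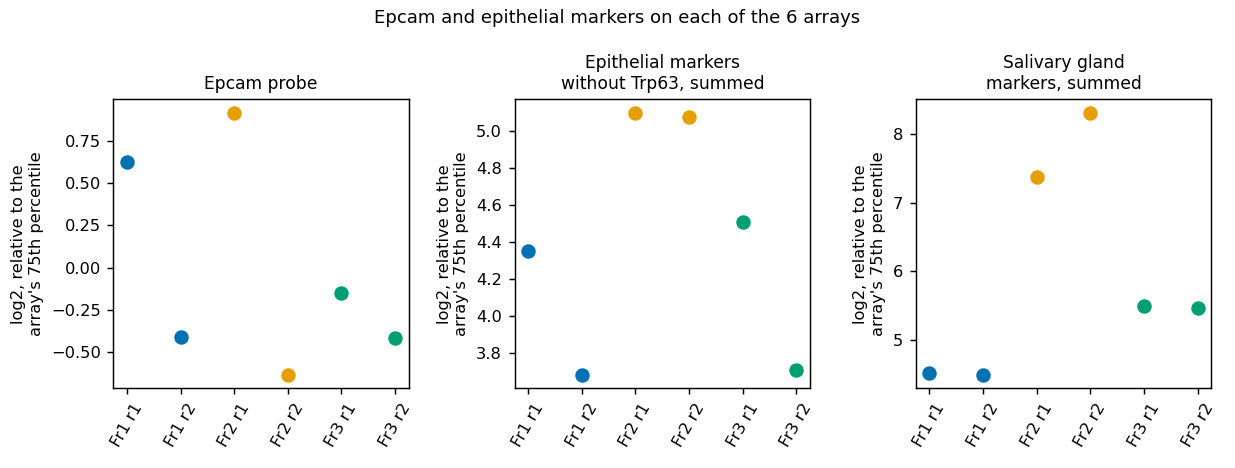
Level of the Epcam probe (left), log2 summed level of the epithelial markers without Trp63 (middle) and of the salivary gland markers (right) on each array; y axes are in log2 units from each array's 75th percentile and differ between panels. Both Fr2 arrays have the highest sums in these panels (5.10 and 5.07; 7.37 and 8.31), which for the epithelial markers holds only without Trp63, whereas Epcam is 0.91 on one and −0.63 on the other.

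The proteins that E-cadherin and EpCAM work with were read from a list of 18 genes, of which 16 were tested. None was called in any comparison by limma's adjusted p, beside 0% of all probes called for Fr1 against Fr2, 0% for Fr1 against Fr3 and 0.00359% for Fr2 against Fr3. At an unadjusted p under 0.05, 2 were higher in Fr1 and 2 in Fr2, where 3.09% and 6.17% of all tested genes were. Against Fr3, 4 were higher in Fr1 and 1 in Fr3, with 2.69% and 5.15% of all genes as background. Between Fr2 and Fr3, 4 were higher in Fr2 and 0 in Fr3, with 4.67% and 3.83% as background. The list medians were 0.02, 0.91 and −0.23 in that order, beside medians over all genes of 0.03, −0.05 and −0.08.

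Among these partners, Itgae encodes the alpha chain of CD103, the integrin that binds E-cadherin. Its probe was at −2.09 and −1.82 in Fr1 and not well above background on the other 4 arrays, where it lay between −5.19 and −4.52, so it passed the filter through Fr1 alone. For such a probe only a bound can be given: the mean of the fraction that measured it was set against, on each array of the dim fraction, the lowest signal that counted as well above background there. By this bound it was at least 1.99-fold higher in Fr1 than in Fr2 (adjusted p = 0.233 in limma) and at least 1.55-fold higher than in Fr3 (adjusted p = 0.217 in limma). Cldn1, the tight junction protein claudin 1, stood at 1.03 and 0.20 in Fr1, −2.89 and −3.05 in Fr2, and −0.58 and −3.23 in Fr3. It was at least 11.6-fold higher in Fr1 than in Fr2 (adjusted p = 0.342 in limma), and its Fr2 arrays were not well above background. Cldn1, like Itgae, passed the filter through Fr1 alone. Itgae and Cldn1 are the genes of this list counted as higher in Fr1 than in Fr2, so the filter placed both.

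Ctnnd1, the catenin p120 that holds E-cadherin at the membrane, was at −1.56 and −1.29 in Fr1 and at 2.17 and 2.23 in Fr3. Its Fr1 minus Fr3 difference was −3.62 ± 1.08 (SE; adjusted p = 0.386 in limma), and 1 of its 3 other tested probes had the opposite sign. The Ctnnd1 probe given here was well above background on every array, whereas the places of Itgae and Cldn1 were tied to the filter.

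Tgfbr1, the type I receptor for TGF-beta, was read by 4 probes that disagreed. The brightest, A_52_P4538, was at 2.88 and 2.71 in Fr1, 4.86 and 1.99 in Fr2, and 1.39 and 1.27 in Fr3. Both Fr3 arrays lay below the other 4; 13.8% of the tested probes had both Fr1 arrays above both Fr3 arrays, and 20.0% had both Fr2 arrays above them. The fitted differences were −0.63 ± 0.95 (SE; adjusted p = 0.865 in limma) for Fr1 minus Fr2, 1.47 ± 0.95 (SE; adjusted p = 0.645) for Fr1 minus Fr3 and 2.10 ± 0.95 (SE; adjusted p = 0.541) for Fr2 minus Fr3. The sign of the first turned, to 0.81, without the first Fr2 array, which read 4.86, and the last was 0.66 without it.

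This probe has 40% T, so it was among those left out when probes rich in T were dropped, and over the 984 tested probes with as many T bases the second Fr3 array minus the first had a median of −0.67. For this probe the same difference was −0.12. The junction probe A_51_P280137, whose sequence is given above, was at −1.55 and 0.41 in Fr1, 0.26 and −0.09 in Fr2, and −1.28 and 0.28 in Fr3. Its fractions overlapped, and its differences were −0.65 ± 0.87 (SE; adjusted p = 0.847 in limma), −0.07 ± 0.87 (SE; adjusted p = 0.993) and 0.58 ± 0.87 (SE; adjusted p = 0.814) in the order above. This probe thus gave no order of the fractions.

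The third tested probe, A_55_P1960906, was at −2.52 and −0.16 in Fr1, −1.43 and −2.68 in Fr2, and −2.58 and −4.60 in Fr3, and was not well above background on the first Fr1 and second Fr3 arrays. It thus passed the filter through Fr2 alone, which ties its place in Fr2 against Fr3 to the filter. Its Fr1 minus Fr3 difference was 2.26 ± 1.05 (SE; adjusted p = 0.603 in limma) and its Fr2 minus Fr3 difference 1.54 ± 1.05 (SE; adjusted p = 0.621). Leaving out 1 array each moved the first between 1.08 (without the second Fr1 array) and 3.44 (without the first Fr1 array) and the second between 0.53 (without the second Fr3 array) and 2.55 (without the first Fr3 array), and under normexp these were 0.39 and 0.18. The last probe, A_55_P1960901, was well above background on the first Fr1 array, at −2.09, and on the second Fr3 array, at −1.77, and between −4.17 and −3.80 elsewhere. Over the 6 arrays Pearson's r was 0.59 between A_52_P4538 and A_55_P1960906 and between −0.73 and 0.22 for the other pairs, as a description of probes that share arrays.

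**Figure D4:**
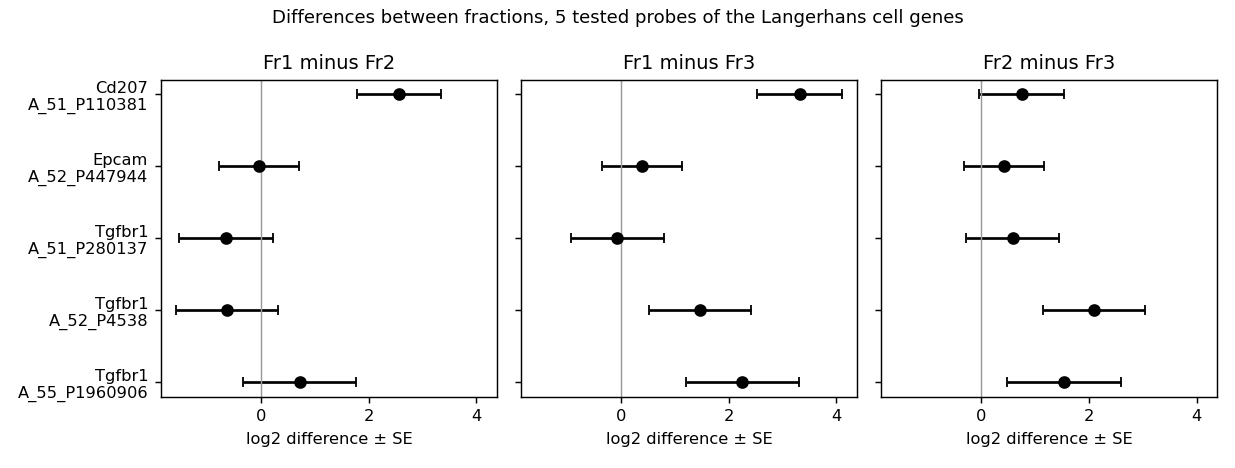
Log2 differences (x axis) of the 5 tested probes (y axis) between Fr1 and Fr2, Fr1 and Fr3, and Fr2 and Fr3; points are limma estimates and bars 1 SE, with 2 arrays per fraction. Cd207 lies at 2.57 and 3.32 in the first panels, and the 3 Tgfbr1 probes differ among themselves in sign or size in each panel.

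The wider TGF-beta pathway was read from 34 ligands, receptors, SMAD proteins and regulators other than Tgfbr1, of which 27 were tested and none was called by limma. At an unadjusted p under 0.05, 1 was higher in Fr1 and 1 in Fr2 (3.09% and 6.17% of all genes). Against Fr3, 3 were higher in Fr1 and 0 in Fr3 (2.69% and 5.15% of all genes), and 3 were higher in Fr2 than in Fr3 and 0 lower (4.67% and 3.83%). The medians were −0.08, 0.37 and 0.67, beside 0.03, −0.05 and −0.08 over all genes.

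Of the ligands, Tgfb1 was well above background on 4 of the 6 arrays, at −2.27 and −2.21 in Fr1, −1.52 and −1.85 in Fr2, and −3.03 and −2.15 in Fr3. Tgfbr2, the type II receptor that pairs with the Tgfbr1 product, was at −0.31 and 0.47 in Fr1, 1.12 and −0.51 in Fr2, and 2.17 and 1.16 in Fr3. Both were named for their role and not for their values. Tgfb1 was highest in Fr2 but passed the filter through Fr2 alone, so its place was tied to the filter. Tgfbr2, well above background on every array, differed from Cd207 in its order. Both Fr1 arrays of Tgfbr2 lay below both Fr3 arrays.

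Acvr2a, an activin receptor, was at 1.15 and 0.02 in Fr1, −0.72 and −4.52 in Fr2, and −5.18 and −4.60 in Fr3. The last 3 readings were not well above background. It passed the filter through Fr1 alone. By the bound used for Itgae it was at least 9.05-fold higher in Fr1 than in Fr3 (adjusted p = 0.246 in limma). This rests on this probe alone, since no other probe of the gene passed the filter. Smad7, the inhibitory SMAD that TGF-beta signalling induces, was at −1.47 and −0.39 in Fr1, −1.23 and −2.08 in Fr2, and not well above background in Fr3. It was at least 3.16-fold higher in Fr1 than in Fr3 (adjusted p = 0.184 in limma) and at least 1.91-fold higher in Fr2 than in Fr3 (adjusted p = 0.217 in limma). Smad7 passed the filter through Fr1 and Fr2, so its place against Fr3 was tied to the filter.

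Smad3, which carries the TGF-beta signal to the nucleus, was at −1.36 and −1.61 in Fr1, 0.56 and 1.79 in Fr2, and −0.92 and −1.25 in Fr3. Both Fr2 arrays lay above the other 4, with Fr1 minus Fr2 at −2.66 ± 0.64 (SE; adjusted p = 0.316 in limma). For Smad7, in contrast, the Fr1 and Fr2 arrays overlapped.

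Il34 was near the limit of detection. The probe A_66_P124871 was at −3.25 and −4.25 in Fr1, −3.35 and −4.14 in Fr2, and −3.64 and −1.89 in Fr3. The probe A_51_P268234 was at −2.96 and −2.82 in Fr1, −5.11 and −3.12 in Fr2, and −3.04 and −1.69 in Fr3. Each was well above background on the second Fr3 array and on no other. No fold is given, since the first Fr3 array did not measure it either. When all probes were tested, the adjusted p-values of the Il34 probes in limma lay between 0.621 and 0.999.

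The other genes of the CSF1R axis were all tested: the receptor Csf1r, the second ligand Csf1, and Ptprz1 and Sdc1, whose products also bind interleukin 34. Csf1r was bright everywhere, at 5.45 and 5.34 in Fr1, 7.21 and 5.30 in Fr2, and 7.21 and 6.76 in Fr3. Fr1 lay below both Fr3 arrays, with a difference of −1.59 ± 0.75 (SE; adjusted p = 0.603 in limma). Csf1 was at 0.74 and 0.96 in Fr1, 1.69 and 1.46 in Fr2, and 0.06 and −0.27 in Fr3, and its Fr2 minus Fr3 difference was 1.68 ± 0.55 (SE; adjusted p = 0.386 in limma). At an unadjusted p under 0.05, this was the only one of the 4 genes in any comparison.

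Other genes that Langerhans cells are known for were read from a list of 14, all of them tested and none called by limma. At an unadjusted p under 0.05, 0 were higher in Fr1 and 2 in Fr2 (3.09% and 6.17% of all genes). Against Fr3, 2 were higher in Fr1 and 1 in Fr3 (2.69% and 5.15%), and 2 were higher in Fr2 than in Fr3 and 0 lower (4.67% and 3.83%). The medians were −0.40, 0.14 and 0.81, beside 0.03, −0.05 and −0.08 over all genes. At least 11 of the 14 genes had a larger p than that in each comparison.

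Ccr6, the receptor that draws Langerhans cell precursors to epithelium, was at 2.48 and 3.24 in Fr1, 3.96 and 2.88 in Fr2, and −3.74 and 0.79 in Fr3. Its arrays overlapped between Fr1 and Fr2, and the Fr1 minus Fr3 difference was 4.34 ± 1.39 (SE; adjusted p = 0.418 in limma). The first Fr3 array was not well above background, and without it the difference was 2.07. Ccr7, with which dendritic cells leave for the lymph node, was at 0.64 and 0.51 in Fr1, −0.47 and 0.05 in Fr2, and −1.04 and −1.64 in Fr3, so it had the same order of means as Cd207. Its Fr1 minus Fr3 difference was 1.91 ± 0.58 (SE; adjusted p = 0.388 in limma), and its second tested probe had the opposite sign for Fr2 minus Fr3.

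Cd24a, a mucin-like surface protein of Langerhans cells and of many epithelial cells, was at 3.40 and 3.36 in Fr1, 4.42 and 5.43 in Fr2, and 2.28 and 2.07 in Fr3. Its Fr2 minus Fr3 difference of 2.75 ± 0.60 (SE) had an adjusted p of 0.207 in limma. Sirpa, a signal receptor of myeloid cells, was at 2.50 and 1.79 in Fr1, 4.11 and 3.68 in Fr2, and 3.25 and 2.09 in Fr3, and the gene's second tested probe had the opposite sign for Fr1 minus Fr2. On these probes both genes were highest in Fr2, unlike Cd207.

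**Figure D5:**
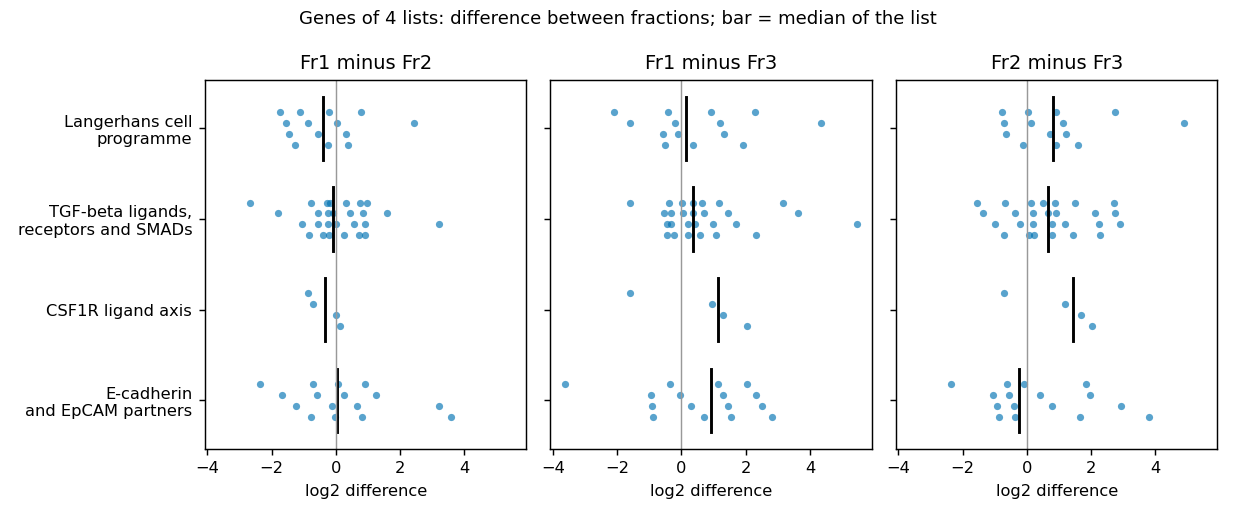
Log2 difference (x axis) of every tested gene of 4 lists (y axis) in the 3 comparisons; each point is 1 gene, and the black bar is the list's median. The medians of the Langerhans cell programme are −0.40, 0.14 and 0.81, and points lie on both sides of 0 in each list for Fr1 minus Fr2.

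Since langerin is also carried by some cDC1, markers of that lineage were read beside Cd207. Of 8 genes 7 were tested and none was called by limma; at an unadjusted p under 0.05, 3 were higher in Fr1 than in Fr2 and 0 lower (3.09% and 6.17% of all genes), and 4 were higher in Fr1 than in Fr3 and 0 lower (2.69% and 5.15%). Between Fr2 and Fr3 the counts were 1 and 0 (4.67% and 3.83%). Itgae and Clec9a are among those higher in Fr1, and Itgae passed the filter through Fr1 alone, as did Clec9a. The medians were 0.49, 1.73 and 1.27, beside 0.03, −0.05 and −0.08 over all genes. Between 6 and 7 of the 8 genes were well above background in Fr1, 5 and 6 in Fr2 and 5 and 4 in Fr3, and the log2 sums were 3.82 and 3.47, 3.66 and 2.75, and 2.57 and 1.98.

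Clec9a, a receptor for dead cells, was at −1.24 and −0.28 in Fr1, −5.04 and −1.89 in Fr2, and not well above background in Fr3. It was at least 3.55-fold higher in Fr1 than in Fr3 (adjusted p = 0.325 in limma). Irf8, a transcription factor of the lineage, was at 1.33 and 0.57 in Fr1, −0.23 and −1.26 in Fr2, and −0.86 and −0.70 in Fr3. Xcr1, a chemokine receptor of the lineage, was at −0.31 and −2.49 in Fr1, 0.83 and 0.53 in Fr2, and −0.72 and −3.36 in Fr3. Irf8, well above background on every array, was thus highest in Fr1. Xcr1 was highest in Fr2 but passed the filter through Fr2 alone. The places of Xcr1, Itgae and Clec9a were thus tied to the filter. The part of cDC1 in the Cd207 level was not tested.

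The other marker lists describe the company of these genes. In the cDC2 list, 0 of 7 genes were higher in Fr1 and 5 were higher in Fr3 at an unadjusted p under 0.05 (2.69% and 5.15% of all genes), among them the lectin genes Mgl2 (6.76 in Fr3 against 4.21 in Fr1) and Clec10a (6.23 against 3.25) and the transcription factor gene Klf4 (5.67 against 3.01). The list's Irf4 (1.53 against 0.69) and Sirpa (2.67 against 2.15) differed less. The part of cDC2 in these levels was not tested. Of 8 genes of resident macrophages, 6 were higher in Fr3 than in Fr1 at that threshold (5.15% of all genes), such as the scavenger receptor gene Cd163, at 6.87 against 1.96, and the folate receptor gene Folr2, at 3.50 against −1.80. Of 4 tested genes of T and NK cells, none had an unadjusted p under 0.05 in any comparison, and Cd3e had means of 0.60, 0.56 and 0.30 in Fr1, Fr2 and Fr3. Of 6 tested genes of fibroblasts and endothelium, 0 were higher in Fr1 at that threshold, 2 were higher in Fr2 than in Fr1 (6.17% of all genes) and 1 was higher in Fr3 than in Fr1 (5.15%).

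Genes were also ranked by how closely they followed each member's brightest probe over the 6 arrays, among 12917 named genes. Pearson's r is given as a description of 6 points that share slides and amplification, and many genes followed each pattern: 72 had r over 0.9 with Cd207, 64 with Epcam and 68 with Tgfbr1. Among the closest to Cd207 were Iqgap1 (r = 0.972), which encodes a cytoskeletal scaffold, and Mfge8 (r = 0.972), which encodes a bridge to apoptotic cells. Mfge8 was at 4.08 and 4.40 in Fr1, 3.05 and 2.89 in Fr2, and 1.69 and 2.50 in Fr3. Closest to Epcam were Sinhcaf (r = 0.992), Ch25h (r = 0.989), a cholesterol hydroxylase, and Irak3 (r = 0.981), an inhibitor of Toll-like receptor signalling.

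The Epcam pattern was mostly one of replicates: Ch25h read 2.21 and 0.00 in Fr1, 3.38 and −0.58 in Fr2, and 0.14 and −0.25 in Fr3, so that the first array of each fraction was above the second, as for Epcam. Closest to the brightest Tgfbr1 probe were Cx3cr1 (r = 0.994), the fractalkine receptor of monocytes and macrophages, Dcdc5 (r = 0.982) and Uba7 (r = 0.980). Cx3cr1 was at 5.28 and 4.86 in Fr1, 6.91 and 4.19 in Fr2, and 3.91 and 3.82 in Fr3. As with that Tgfbr1 probe, the first Fr2 array was highest and both Fr3 arrays were lowest.

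Over the whole series, between 44.6% and 52.4% of spots per array were well above background and none was saturated; the number of arrays limits the precision. Replicates correlated across probes with Pearson's r of 0.866 in Fr1, 0.878 in Fr2 and 0.780 in Fr3. The second Fr3 array minus the first had a median of 0.69 over tested probes with under 20% T and of −1.39 over those with at least 40% T; in Fr1 these were 0.47 and −0.89. The sort markers were read as a check: Mrc1, the CD206 gene, was not well above background in Fr1 and at 0.49 ± 0.22 (SD, n = 2) in Fr2 and 3.23 ± 0.79 (SD, n = 2) in Fr3, and Adgre1, which encodes ADGRE1, was between 4.39 and 5.97 on all arrays. Itgax, the CD11c gene, was at 2.71 and 2.35 in Fr1, 2.77 and 1.20 in Fr2, and 0.20 and 0.95 in Fr3, so Fr1 and Fr2 overlapped at the RNA level. The single probe called in any comparison read Gm2042 (chr12:89199059-89199118), named after its value was seen. It was not well above background on either Fr2 array and Fr3 exceeded Fr2 by at least 70.1-fold (adjusted p = 0.0401 in limma). Without the first Fr3 array, when the lone Fr3 array is assumed to vary as the Fr1 and Fr2 arrays do, 1436 probes were called between Fr1 and Fr3 and 822 between Fr2 and Fr3, none of them a probe of the 5 genes; without any other single array 0 were called in either comparison. Of the genes named above, Cldn1, Cd163, Folr2, Muc5b and Sdc1 were among those called between Fr1 and Fr3 without the first Fr3 array. Of these, Cldn1 (−0.58 and −3.23 in Fr3) and Sdc1 (1.05 and −2.33) were well above background on that array but not on the second. Leaving it out thus removed the only Fr3 array that measured them. The other tested Sdc1 probe had the opposite sign for Fr1 minus Fr3 over all arrays.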

How the data were processed

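Arrays were grouped by fraction from the labels, 2 per fraction. Per the file headers, the authors made the deposited spot intensity values with version 11.5.1.1 of Agilent Feature Extraction, which subtracts background and spatial trends. The authors' deposited value table of log2 values followed these with Pearson's r above 0.999 on every array and served as an alternative. Coordinates are on mm9, per the file headers. Files were read with Python 3.11.15. Spots of a probe were averaged, and 4 probes with outlier flags were left out. Log2 signals were centred on each array's 75th percentile. The brightest kept probe stood for its gene, with names updated through RefSeq. Group means were fitted over all 6 arrays with limma 3.58.1 (R 4.3.3; lmFit, eBayes; two-sided; Benjamini-Hochberg over 27867 probes), tested on simulated data. With 2 arrays against 2 no exact permutation test can pass, so none is given.

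All member probes are given. From each list up to 4 genes with the smallest unadjusted p in any comparison were eligible to be named, and for each tested member the 3 genes with the highest r; a few of these genes are not reported here. Krt5, Krt10, Krt19, Dsg3, Grhl3, Trp63, Tgfb1 and Tgfbr2 were named for their role or level outside that rule. Members and lists were chosen with earlier results of these data known. Alternatives were background correction, scaling, the value table, the filter, probe choice, T content, a replicate block, single arrays left out and only the arrays compared.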

Additional observations from a re-analysis of the deposited data

How the results depend on the processing

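No probe of the 5 genes was called under any of the alternatives. Counts of called probes over the whole array were 0 for Fr1 against Fr2, 0 for Fr1 against Fr3 and 1 for Fr2 against Fr3. For Fr1 against Fr2 the count became 1 with probes over 30% T left out. For Fr1 against Fr3 it was 1 with probes above background on all arrays, 1 with 1 probe per gene, 1 with the mean of a gene's probes and 10 without T-rich probes; leaving out 1 array each gave 0 to 1436. For Fr2 against Fr3 it was 16 under normexp, 9 with probes above background on all arrays, 58 without T-rich probes, and 0 under quantile scaling, with no filter, with the replicate block and with only the 4 arrays compared; leaving out 1 array each gave 0 to 822. The highest of these counts came without the first Fr3 array, when the lone Fr3 array is assumed to vary as the Fr1 and Fr2 arrays do; the cause was not tested.

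Whether same-numbered arrays belong to the same experiment is not known here, and the main fit did not pair them. Deviations of same-numbered arrays correlated at 0.0988 between Fr1 and Fr2, 0.396 between Fr1 and Fr3 and 0.0276 between Fr2 and Fr3, across probes. With the replicate block the counts were 0, 0 and 0, and the Cd207 differences had adjusted p = 0.328 against Fr2 and 0.279 against Fr3 in limma.

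Of the 15 differences of the 5 tested probes, 9 changed sign under at least 1 alternative, in 12 of 219 refits, 11 of them with 1 array left out. Leaving out 1 array each, Epcam ran from −0.81 to 0.74 for Fr1 minus Fr2, from −0.13 to 0.91 for Fr1 minus Fr3 and from −0.35 to 1.20 for Fr2 minus Fr3. Tgfbr1 probe A_51_P280137 ran from −1.63 to 0.33, from −1.05 to 0.91 and from −0.20 to 1.36 in the same order, and under normexp its Fr1 minus Fr3 difference was 0.041. For Fr1 minus Fr2, A_52_P4538 ran from −2.07 to 0.81 and A_55_P1960906 from −0.46 to 1.90. Cd207 ran from −0.27 (without the first Fr3 array) to 1.77 for Fr2 minus Fr3. With the filter for all arrays, Cd207 and A_55_P1960906 had no value, and A_52_P4538 had none without T-rich probes. Dim signal limits Cdh1 and Il34.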
